A study of Sus scrofa with 20 samples.

Results

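Cytochrome P450 enzymes are haem proteins that add oxygen to fat-soluble molecules, and the liver holds more of them than any other organ. Families CYP1 to CYP3 mainly clear drugs, toxins and other foreign compounds, family CYP4 hydroxylates fatty acids, and further families make bile acids, steroid hormones and active vitamin D or break down retinoic acid. Most sit in the endoplasmic reticulum, take electrons from POR or cytochrome b5, and in hepatocytes are switched on by ligand-activated receptors such as NR1I2 (PXR), NR1I3 (CAR) and AHR. Many hepatic P450 genes are known to be low in fetal liver and to rise around and after birth, while the fetal protein AFP falls.

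The P450 genes of the pig were followed here through 20 poly(A) RNA-seq libraries. Members were all rows whose gene name begins with CYP and a digit, which gave 38 of 25764 rows, all of them protein-coding. The 20 libraries fall into 6 sorted groups. Porcine biliary tree stem cells (pBTSCs), labelled as gallbladder and described in the study as prepared from gallbladder and bile ducts outside the liver, made up 5 libraries, with titles S2, S7, S11, S15 and S20. The other 15 libraries were sorted liver cells: CD45+ (5 libraries), CD45-/EpCAM+ (4), CD45-/EpCAM- (2), CD31+ (2) and CD146+ (2). CD45 is the common leukocyte antigen, EpCAM an epithelial adhesion molecule, CD31 an endothelial marker, and CD146 a marker of endothelial cells and pericytes.

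The labels give no age, treatment or genotype for any group. By the study's text, pBTSCs came from neonatal piglets, and its list of preparations has S2, S7 and S11 as piglets carrying H2B-GFP, a histone fused to a fluorescent protein at the ACTB locus, and S15 and S20 as wild-type piglets. The 5 preparations of pBTSCs thus came from 5 piglets. For liver, the study describes progenitors from fetal or neonatal livers and hepatocytes from neonatal pig livers, but ties neither an age nor a donor to a title. Because liver samples of a group may come from the same animal, p-values between liver groups measure the spread between these samples, which may be technical. The liver titles fall into S3-S14 (8 libraries) and S16-S23 (7 libraries). What the 2 ranges stand for is not labelled, and CD45-/EpCAM- cells occur only in the first and CD31+ and CD146+ cells only in the second. Animal, genotype, age, day and handling therefore cannot be told apart in a comparison of the ranges. The listed pBTSC titles also turn from H2B-GFP to wild-type between S11 and S15, near the same cut. A liver library may share a piglet with a pBTSC library, which is not labelled, and the p-values between them ignore this.

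Values are the authors' normalized counts, which are not corrected for gene length, so levels are compared between libraries and not between genes. Estimated depth was 21200000 to 77500000 reads in 17 libraries, where 3 reads were worth 0.683 to 4.28 normalized counts. It was 455000 to 1570000 reads in S13 (CD45-/EpCAM+), S15 (pBTSCs) and S22 (CD146+), where 3 reads were worth 77.4, 37.6 and 156. A value at or under 3 reads was treated as under the floor, so low members cannot be read in these 3 libraries. Of the 38 members, 14 were above the floor in every library and 3 in none. The sorts did not separate well by marker genes. PTPRC, the gene of CD45, had 424 to 2687 normalized counts in CD45+ and 450 to 3027 in CD45-/EpCAM+ liver cells. None of 10 leukocyte markers tested was called between these 2 sorts, but neither was any other gene (0% of all genes), so this count says little. Every liver library carried hepatocyte markers, whose summed normalized counts were 1226509 to 3261595, against 26607 to 82152 in pBTSCs. In S2, S7 and S11 of the pBTSCs, APOA1 alone had 23518, 27035 and 23582 of sums of 28624, 30171 and 26607. Summed stellate cell and fibroblast markers were 406239 to 1644337 in pBTSCs and 37051 to 178214 in liver. Cholangiocyte markers summed to 28943 to 68434 and 4473 to 17465, while EPCAM had 884 to 2075 and 491 to 2232. The part of each cell type in the P450 differences was not tested. In bulk samples such as these, fewer cells of a type and less RNA per cell cannot be told apart.

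Tests were made with limma on log2(normalized count + 1), over every gene that reached 10 normalized counts in 2 or more libraries. Called genes had an adjusted p-value under 0.05 and a log2 fold change beyond 1 in either direction. This filter kept 29 of 38 members beside 15576 genes in all. The 9 members left out were low in all 20 libraries. CYP8B1, the sterol 12-alpha-hydroxylase of cholic acid synthesis, reached at most 10.4 normalized counts, and CYP17A1 and CYP19A1, which make androgens and oestrogens, reached 3.34 and 1.82. CYP2F1 reached 13.7 and CYP46A1, the cholesterol 24-hydroxylase of brain, 5.27. CYP24A1, which breaks down vitamin D, reached 1.27, CYP26C1 1.27 and CYP4F22 1.70, while CYP27C1 was at 0 in all 20 libraries.

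Across the 6 groups, 18 of the 29 members differed in limma's moderated F test, against 44.5% of all genes tested. The heatmap of all tested members shows the libraries in 3 blocks, pBTSCs and the 2 liver title ranges. The blocks were set beforehand and not found by clustering.

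**Figure D1:**
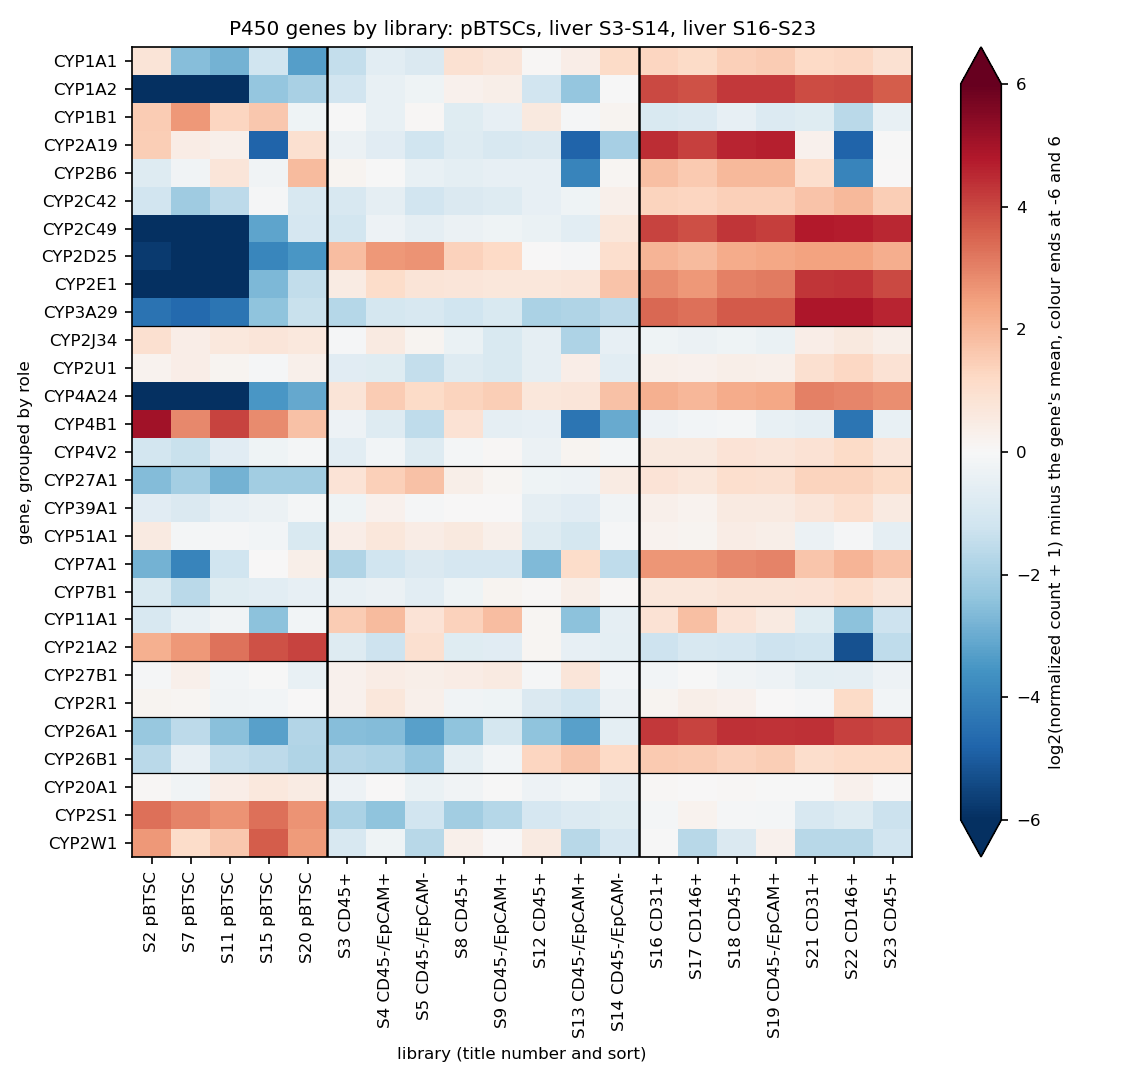
Heatmap of the 29 tested P450 genes (rows, by role) in the 20 libraries (columns, by group and title range), coloured by log2(normalized count + 1) minus the gene's mean, with the colour ends at ±6. CYP3A29, CYP2C49, CYP1A2 and CYP26A1 are high in liver S16-S23 and low in liver S3-S14 and pBTSCs, and CYP2S1, CYP4B1 and CYP21A2 are high in pBTSCs.

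The first question was how P450 expression in biliary tree stem cells compares with that of sorted liver cells. Against CD45-/EpCAM+ liver cells, 14 of 29 tested members were called, against 25.1% of all genes. Of these, 6 were higher in pBTSCs (14.8% of all genes were) and 8 were lower (10.3% of all genes were). The groups did not overlap for 4 of the higher members (19.2% of all genes lay above in this way) and 6 of the lower ones (14.1% lay below). Against S19 alone, the CD45-/EpCAM+ library of S16-S23, 14 members were again called (8.83% of all genes), but 2 higher and 12 lower, in a fit that takes the spread of this lone library from the other groups. The median log2 fold change was -0.91 over the tested members and 0.08 over all genes. When each library was instead scaled by its hepatocyte markers, which themselves differed strongly between the groups, the median of all genes moved to 8.12 and 25 members were called, all of them higher in pBTSCs, as were 15398 of the 15404 genes called. This scaling subtracted the mean log2 value over 15 markers, and not the log2 of their sum. Some of these markers were near 0 in pBTSCs, such as APCS with 0.681, 2.32 and 0 in S2, S7 and S11. A scaling by the summed counts was not fitted. The directions that follow are therefore relative to the authors' normalization, and not to these markers. That normalization left library totals between 1.77e+07 and 3.03e+07, and with totals made equal the median of all genes was 0.39.

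Members with higher values in all 5 pBTSC libraries than in any of the 15 liver libraries numbered 4 of 29, CYP2S1, CYP4B1, CYP21A2 and CYP2W1, where 11.9% of all genes did the same. Those with lower values in all 5 numbered 4 of 29, CYP2E1, CYP2D25, CYP4A24 and CYP27A1, where 9.21% of all genes did. CYP4B1 and CYP2W1 were listed at 0 in S13 and S22, whose floors lie above some or all of their pBTSC values, so for these genes the order holds against the 13 deep liver libraries. Both counts are near the share over all genes.

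Among P450 genes for foreign compounds, 5 of 10 were lower in pBTSCs than in CD45-/EpCAM+ liver cells (10.3% of all genes were). CYP1B1 was the 1 higher (14.8% of all genes), and the median log2 fold change was -2.87. Roles hold few genes, and their counts were not tested against these shares. CYP2E1, which oxidises ethanol and paracetamol, had 2.72, 2.58, 5.09, 327 and 766 normalized counts in S2, S7, S11, S15 and S20 of the pBTSCs. In CD45-/EpCAM+ cells it had 4509, 3348, 3522 and 18037 in S4, S9, S13 and S19. The groups did not overlap, although S15 and S20 lay far above the other 3 pBTSC libraries. The log2 fold change was -7.59 (SE 1.40, adjusted p = 0.000386), and under the scaling by hepatocyte markers it was 0.45.

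CYP2D25, the pig enzyme that also 25-hydroxylates vitamin D, had 34.7, 19.4, 19.8, 126 and 165 normalized counts in the same 5 libraries of pBTSCs. It had 11544, 4357, 1800 and 9394 in the 4 CD45-/EpCAM+ libraries. Its log2 fold change was -6.75 (SE 0.68, adjusted p = 8.39e-07), with a clear gap between the groups. The value under the hepatocyte scaling was 1.28.

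CYP2C49, a pig CYP2C enzyme, was at 0.757, 1.08 and 0 in S2, S7 and S11, at 35.8 in S15, which is under the floor of that library, and at 166 in S20. CD45-/EpCAM+ cells had 269, 275, 214 and 5909. The groups did not overlap, and the log2 fold change was -6.23 (SE 1.53, adjusted p = 0.00385), against 1.81 under the hepatocyte scaling.

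CYP1A2, a target of AHR that metabolises caffeine, was at 0.680, 0.775 and 0.637 in S2, S7 and S11, at 25.1 in S15 and at 32.6 in S20, the values of S2, S11 and S15 being under the floor. CD45-/EpCAM+ cells had 96.9, 166, 25.7 and 2445, of which 25.7 in S13 was under the floor. The shallow libraries made the groups overlap, and the log2 fold change was -5.08 (SE 1.36, adjusted p = 0.00693). CYP1A1, its neighbour and the classical AHR target, was lower by a log2 fold change of -2.32 (SE 0.73, adjusted p = 0.0186), but overlapped because S2 held 1521 normalized counts while the other 4 pBTSC libraries held 90.03 to 394.

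CYP1B1, an AHR target of many tissues outside the liver, went the other way at 1.81 (SE 0.42, adjusted p = 0.00249), with 148 to 1075 normalized counts in pBTSCs and 99.3 to 165 in CD45-/EpCAM+ cells. CYP3A29, the main pig CYP3A enzyme, missed the threshold in this comparison at -3.43 (SE 1.35, adjusted p = 0.0541), since CD45-/EpCAM+ cells themselves ran from 676 to 29878. It was called against CD45+ cells (-4.13, SE 1.28) and against CD31+ and CD146+ cells together (-7.56, SE 1.35). CYP2A19, CYP2B6 and CYP2C42 were not called against CD45-/EpCAM+ cells.

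**Figure D2:**
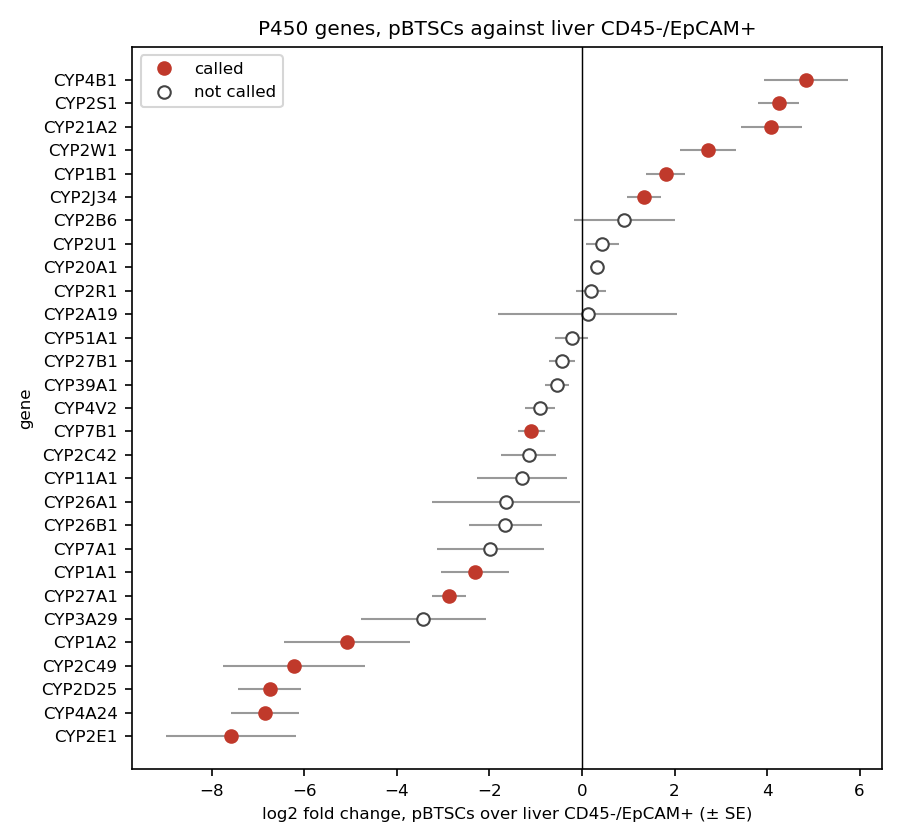
Log2 fold change ± SE of each tested P450 gene in pBTSCs (5 libraries) against liver CD45-/EpCAM+ cells (4 libraries), on the deposited scale. CYP4B1, CYP2S1 and CYP21A2 lie above 4 and CYP2E1, CYP4A24, CYP2D25 and CYP2C49 below -6, the last 4 of which change sign when libraries are scaled by hepatocyte markers.

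Of 5 fatty acid P450 genes tested, 2 were higher (14.8% of all genes were) and 1 lower (10.3%) in pBTSCs than in CD45-/EpCAM+ cells, with a median of 0.44. CYP4B1, an enzyme best known from lung, had 688, 152, 353, 149 and 69.2 normalized counts in S2, S7, S11, S15 and S20, and 11.4, 13.5, 0 and 14.5 in the 4 CD45-/EpCAM+ libraries, the 0 being in the shallow S13. No pBTSC library came down to 37.8, the highest liver value. The log2 fold change was 4.84 (SE 0.90, adjusted p = 0.000433), and 3.75 without a call against S19 alone. CYP2J34, of the arachidonic acid epoxygenase family, was higher by 1.33 (SE 0.37, adjusted p = 0.00845).

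CYP4A24, a fatty acid hydroxylase, was the lower one. It had 5.29, 6.03, 7.08, 66.6 and 87.0 normalized counts in S2, S7, S11, S15 and S20 and 2188, 2067, 1224 and 3704 in CD45-/EpCAM+ cells. The gap was more than the spread of either group, at -6.85 (SE 0.73, adjusted p = 1.45e-06), and 1.18 under the hepatocyte scaling. CYP4V2, which hydroxylates fatty acids in the eye and liver, had a log2 fold change of -0.91 with an adjusted p of 0.0324, short of the fold threshold.

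For cholesterol and bile acids, 2 of 5 tested members were lower in pBTSCs (10.3% of all genes were). CYP27A1, the mitochondrial sterol 27-hydroxylase of the acidic bile acid pathway, had 324, 493, 278, 470 and 474 normalized counts in S2, S7, S11, S15 and S20. In CD45-/EpCAM+ cells it had 5396, 2163, 1614 and 3948. It differed from the foreign-compound genes in that the 5 pBTSC libraries were close together, with a log2 fold change of -2.88 (SE 0.37, adjusted p = 9.75e-06), and 5.15 under the hepatocyte scaling.

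CYP7B1, the oxysterol 7-alpha-hydroxylase that acts after CYP27A1, was at 1980, 1196, 2193, 2363 and 2634 in pBTSCs and at 2835, 4097, 4624 and 6216 in CD45-/EpCAM+ cells. The fall was small, at -1.09 (SE 0.29, adjusted p = 0.00637), and reached only -0.91 without pBTSC library S7 or without S19, and 6.94 under the hepatocyte scaling. CYP7A1, the rate-limiting enzyme of bile acid synthesis, was low in both, with 0.491 to 29.3 in pBTSCs and 9.34, 10.7, 48.9 (under the floor) and 183 in CD45-/EpCAM+ cells. CYP51A1, the lanosterol demethylase of cholesterol synthesis found in most cells, had a log2 fold change of -0.22 and was not called.

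CYP21A2, the steroid 21-hydroxylase of the adrenal cortex, was the only one of 2 tested steroid genes to be called (25.1% of all genes were). It had 162, 224, 351, 528 and 616 normalized counts in S2, S7, S11, S15 and S20, and 14.6, 22.01, 25.7 and 14.6 in the 4 CD45-/EpCAM+ libraries. The highest liver value was 69.9, in CD45-/EpCAM- library S5, so that pBTSCs lay above all 15 liver libraries. The log2 fold change was 4.09 (SE 0.66, adjusted p = 0.000115). CYP11A1, which starts steroid synthesis by cutting the cholesterol side chain, stayed at 3.84 or less in pBTSCs and at 19.6 or less in liver.

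Neither of 2 vitamin D genes was called against CD45-/EpCAM+ cells. CYP2R1, the main 25-hydroxylase of vitamin D, had 128 to 165 normalized counts in pBTSCs and 63.4 to 321 in liver, and CYP27B1, which activates 25-hydroxyvitamin D, had 53.4 to 91.3 and 49.1 to 123. Neither of the 2 tested retinoic acid genes, CYP26A1 and CYP26B1, was called against CD45-/EpCAM+ cells.

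Of the remaining P450 genes, 2 of 3 tested were higher in pBTSCs (14.8% of all genes were). CYP2S1, an enzyme of surface epithelia, had 1794, 1430, 1171, 1796 and 1186 normalized counts in pBTSCs. CD45-/EpCAM+ cells had 33.6, 54.1, 103 and 169, and no liver library exceeded 208. The 5 values of pBTSCs lay close together, and the log2 fold change was 4.25 (SE 0.45, adjusted p = 1.31e-06).

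CYP2W1, known from fetal gut and some tumours, was low everywhere but above liver, with 18.5, 5.92, 8.68, 38.2 and 17.8 in pBTSCs and at most 3.66 in the 15 liver libraries. Its log2 fold change was 2.72 (SE 0.61, adjusted p = 0.00199), a value that depends on the pseudocount because liver lay near the floor, and 2.07 without a call against S19 alone. CYP20A1, an enzyme with no settled substrate, was not called at 0.33.

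The other liver sorts gave related lists against the same 5 pBTSC libraries, so these comparisons are not independent. Against CD45-/EpCAM- cells, 11 members were called (36.6% of all genes), 5 of them higher (20% of all genes) and 6 lower (16.6%). Against CD45+ cells, 14 were called (20.6% of all genes), 5 of them higher (11% of all genes) and 9 lower (9.54%). Against CD31+ and CD146+ cells together, 20 were called (21.4% of all genes), 5 of them higher (12.6% of all genes) and 15 lower (8.75%). Under the scaling by hepatocyte markers, 26 members were called against CD45-/EpCAM- cells and 25 against CD45+ cells, all of them higher in pBTSCs. Of all 15576 genes, 15361 and 15403 were called there, 15359 and 15395 of them higher. Against CD31+ and CD146+ cells 24 members were then called, 22 higher and 2 lower, beside 15360 genes, 15346 higher and 14 lower. These counts thus say nothing particular to P450 genes.

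Further members passed the test where the liver side was CD31+ and CD146+ cells, which come from S16-S23 alone. Whether these comparisons differ was not tested. CYP26A1, the main enzyme that removes retinoic acid, was lower in pBTSCs there by -6.46 (SE 1.60, adjusted p = 0.00525), and by 1.19 in the other direction under the hepatocyte scaling. CYP26B1, its relative, was lower by -2.72 (SE 0.79, adjusted p = 0.0148) and CYP2C42, a pig CYP2C enzyme, by -2.75 (SE 0.59, adjusted p = 0.00183). CYP7A1 was lower by -3.77 (SE 1.16, adjusted p = 0.0201), a call that was lost without pBTSC library S7 or CD31+ library S16, and whose sign turned to 3.89 under the hepatocyte scaling. CYP39A1, which hydroxylates 24-hydroxycholesterol, was at -1.07 (SE 0.26, adjusted p = 0.00523) and CYP4V2 at -1.50 (SE 0.32, adjusted p = 0.00165).

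The 5 pBTSC libraries were not alike for hepatocyte genes. ALB, the main plasma protein of hepatocytes, had 19832 and 25087 normalized counts in S15 and S20 and 287 to 376 in S2, S7 and S11. As a share of the liver median this was 1.47% and 1.86% against 0.0213% to 0.0279%. CYP3A29 was also higher in these 2 libraries, with 437 and 940 normalized counts against 91.9 to 110, as were CYP2E1 and CYP4A24 above. CYP2C49 was higher in S20, while its value in S15 was under the floor. By the study's quality list, RNA integrity was lower in S2, S7 and S11 than in S20, and no value is given for S15. The part of hepatocyte RNA, of RNA quality or of the genotype in this split was not tested. Of the 4 genes above liver, CYP21A2 was higher in S15 and S20 than in the other 3, CYP4B1 was lower, and CYP2S1 and CYP2W1 overlapped.

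**Figure D3:**
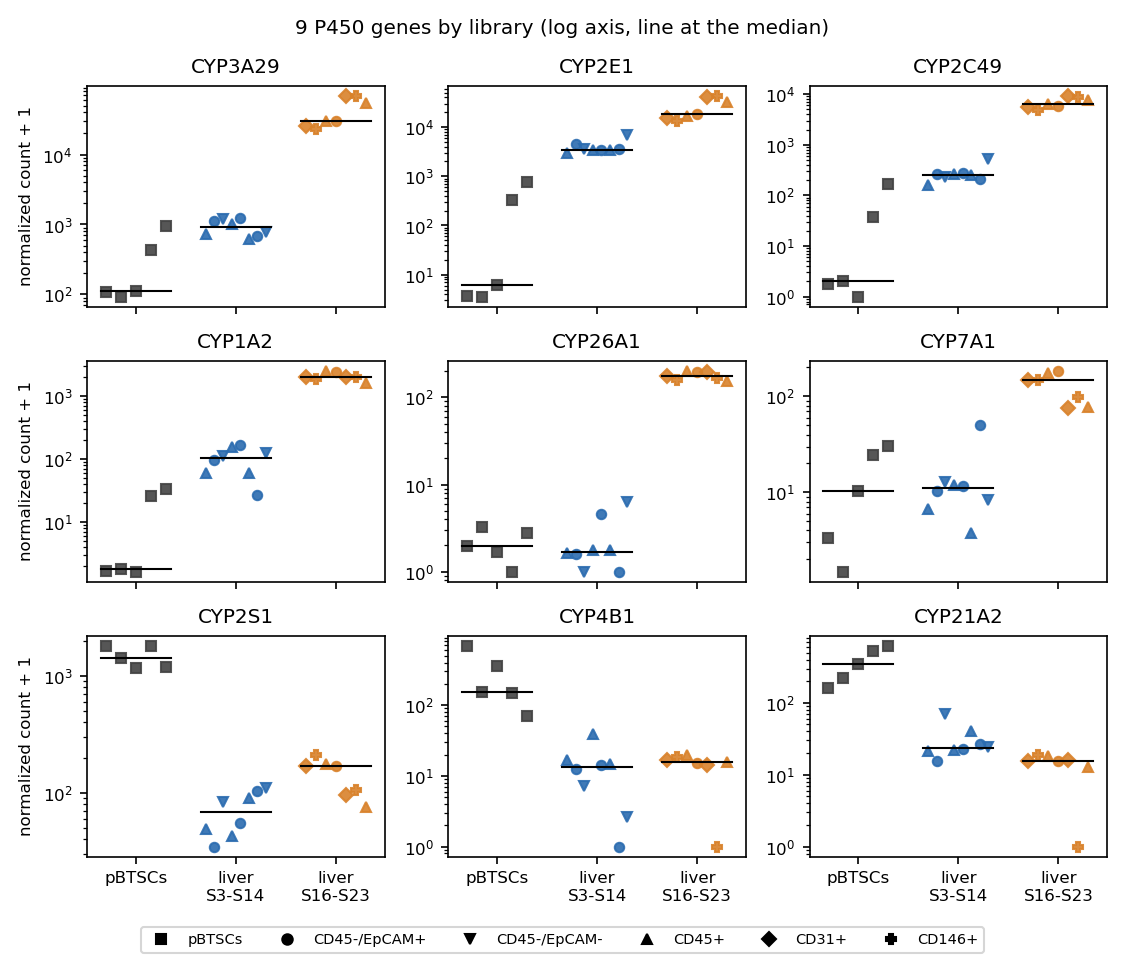
Normalized counts (+ 1, log axis) of 9 P450 genes in each library, by block (pBTSCs, liver S3-S14, liver S16-S23), with a marker for each sort and a line at the median. CYP3A29, CYP2C49, CYP1A2 and CYP26A1 separate the 2 liver blocks, while CYP2S1, CYP4B1 and CYP21A2 are highest in pBTSCs.

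The second comparison was between the title ranges of the liver libraries. The cut between S14 and S16 was set with earlier results of these data known, so the p-values do not test a split fixed beforehand. The fit held the sort as a term over 14910 genes, of which 28 were members. Of these, 8 were called, all lower in S3-S14, against 3.78% of all genes called and 2.27% called lower. In 10 members every S3-S14 library lay below every S16-S23 library, as 7.38% of all genes did. The median log2 fold change was -1.08 over the tested members and -0.03 over all genes. The same direction held when libraries were scaled by hepatocyte markers, where 7 members were called, all lower, against 1.11% of all genes. Without the 3 shallow libraries 13 members were called, all lower, against 7.42% of all genes.

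Of 10 genes for foreign compounds, 5 were lower in S3-S14 (2.27% of all genes were), and the median over the 10 was -2.38. CYP3A29 had a lowest, median and highest value of 623, 904 and 1241 normalized counts in S3-S14 and of 22897, 30088 and 68618 in S16-S23. The lowest library of the second range was 18.5-fold above the highest of the first. The log2 fold change was -5.42 (SE 0.41, adjusted p = 3.33e-05), or 42.7-fold lower on that scale.

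CYP2C49 ran from 156 through a median of 256 to 527 in S3-S14 and from 4912 through 6500 to 9165 in S16-S23. The gap between the ranges was 9.32-fold. Its log2 fold change was -4.84 (SE 0.30, adjusted p = 4.71e-06). CYP2C42 lay lower in the same direction, with 135, 194 and 381 against 740, 837 and 1200, and a log2 fold change of -2.13 (SE 0.29, adjusted p = 0.00195). Under the hepatocyte scaling it was -2.51 and no longer called.

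CYP1A2 ran from 25.7 through 103 to 166 in S3-S14 and from 1631 through 2034 to 2520 in S16-S23, with no overlap and a log2 fold change of -4.77 (SE 0.49, adjusted p = 0.000257). CYP1A1 overlapped between the ranges, with 333, 1062 and 1980 against 1704, 2133 and 2543, and was not called at -1.34 (adjusted p = 0.12). In consequence CYP1A2 per CYP1A1 count was 0.950 to 1.04 in the 7 libraries of S16-S23 and 0.0218 to 0.225 in the 8 of S3-S14, the lowest being S13, where CYP1A2 was under the floor. In RefSeq's Sscrofa11.1 annotation the 2 genes are neighbours with 0 genes between them and belong to 1 subfamily, so reads shared between them could move this ratio, and both levels are uncertain to that extent.

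CYP2E1 was lower in S3-S14 too, with 2937, 3496 and 6848 against 12969, 18037 and 42673, and a log2 fold change of -2.63 (SE 0.41, adjusted p = 0.00423). The ranges came closer than for CYP3A29, the lowest of the second being 1.89-fold above the highest of the first. CYP2D25, in contrast, overlapped, with 1800 to 12179 in S3-S14 and 6955 to 9962 in S16-S23, and was not called at -1.10 (SE 0.55, adjusted p = 0.233). Within S3-S14 it had 6801, 11544 and 12179 in S3, S4 and S5 but 1927, 1800 and 3825 in S12, S13 and S14.

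For fatty acids, 1 of 5 tested genes was lower in S3-S14 (2.27% of all genes were). CYP4A24 had 1184, 1781 and 2529 against 2943, 3704 and 6088, a log2 fold change of -1.38 (SE 0.31, adjusted p = 0.0219). The call was lost without S18 (-1.46), without S19 (-1.57) or without S23 (-1.17), with 1 mean per run of titles (-1.34) and under the hepatocyte scaling (-1.75), while the fold stayed of like size or grew. CYP4V2 did not overlap between the ranges but stayed under the fold threshold at -0.98 (SE 0.19, adjusted p = 0.0136).

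For cholesterol and bile acids, 1 of 5 was lower (2.27% of all genes were). CYP7A1 had 2.74, 10.04 and 48.9 in S3-S14, the highest being under the floor of S13, against 73.9, 145 and 183 in S16-S23. The log2 fold change was -3.82 (SE 0.60, adjusted p = 0.00423), with no overlap. CYP7B1 had 2396 to 4624 against 5894 to 7352 and stayed under the fold threshold at -0.87 (SE 0.20, adjusted p = 0.0231). CYP27A1 overlapped at -0.69 and CYP51A1 was at -0.10.

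The retinoic acid enzyme CYP26A1 had the largest fitted difference of the 28 members. It was between 0 and 5.30 normalized counts in S3-S14, near or under the floor, and had 154, 177 and 200 as its lowest, median and highest value in S16-S23. Its lowest S16-S23 value among the deep libraries was 29.0-fold above the highest of S3-S14. The fitted log2 fold change was -6.67 (SE 0.63, adjusted p = 0.000137), a value that depends on the pseudocount. CYP26B1 had a different pattern, given with the runs of titles, and was not called at -1.64. None of 2 steroid, 2 vitamin D and 2 remaining members tested was called.

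**Figure D4:**
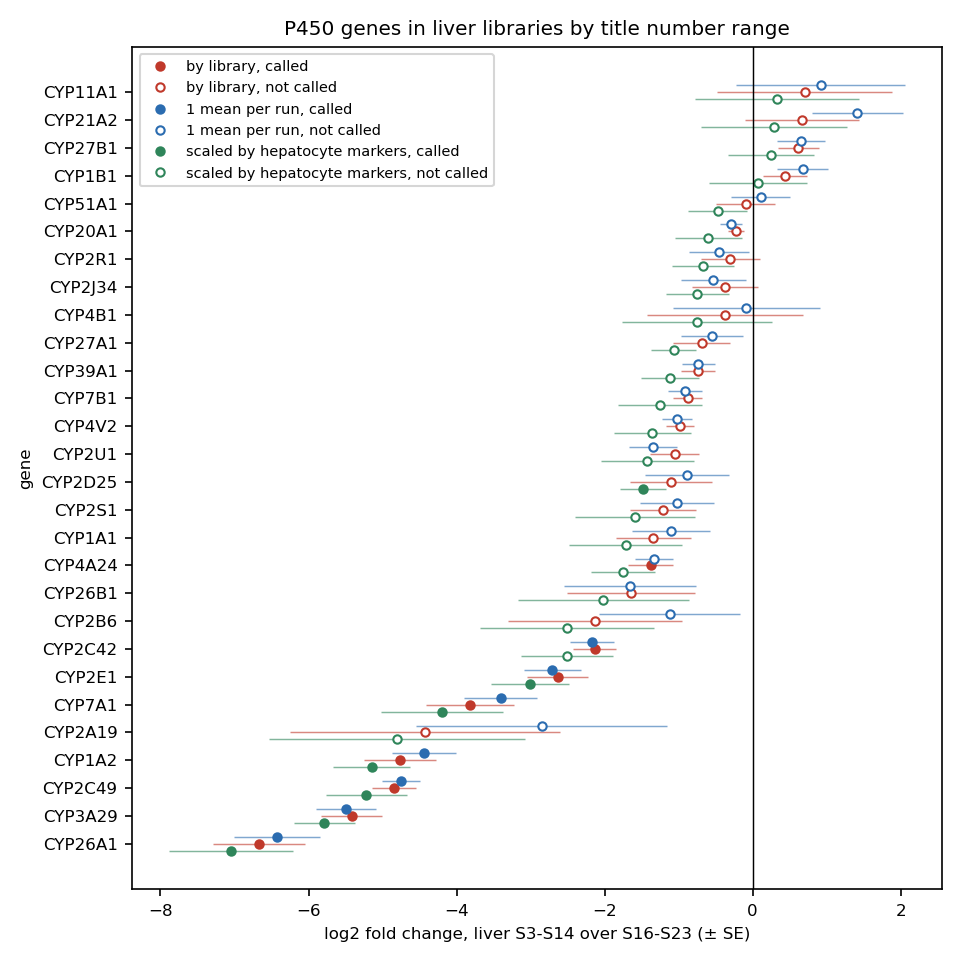
Log2 fold change ± SE of the tested P450 genes in liver S3-S14 against S16-S23, by library (red), with 1 mean per run of consecutive titles (blue) and with libraries scaled by hepatocyte markers (green), filled where called. Every filled point lies below 0, and CYP26A1, CYP3A29, CYP2C49 and CYP1A2 lie lowest.

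Other genes moved with the ranges. Of 3 fetal liver genes tested, 1 was called (3.78% of all genes). This was AFP, the fetal albumin-like protein, with 65022 to 176993 normalized counts in S3-S14 and 914 to 2034 in S16-S23. Its log2 fold change was 6.49 (SE 0.36, adjusted p = 4.06e-06). GPC3 overlapped, with 5859 to 26768 against 8068 to 10425. DLK1 went the other way without a call, with 0 to 96.4 in S3-S14 and 184 to 523 in S16-S23. All 5 erythroid markers tested were higher in S3-S14, with summed counts of 12642 to 882414 against 1461 to 2573. Of 15 hepatocyte markers tested, 2 were called: APCS, a plasma pentraxin, at 5.24 and TTR, the thyroxine carrier transthyretin, at -1.31. ALB was lower in every S3-S14 library than in any S16-S23 library (513084 to 1348200 against 1366700 to 1789960) but was not called. The summed hepatocyte markers overlapped, at 1226509 to 3261595 and 2259497 to 3141884. None of 10 leukocyte, 9 endothelial and 6 stellate cell and fibroblast markers was called, and 1 of 6 cholangiocyte markers was, AQP1 at -1.40. The parts of blood-forming cells and of developmental stage in the P450 differences were not tested.

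The level per 1000 summed counts of the hepatocyte markers was also computed in each library. CYP3A29 had 0.296 to 0.617 counts in S3-S14 and 10.1 to 23.2 in S16-S23, and CYP2E1 had 1.2 to 2.73 and 5.74 to 13.8. CYP2D25 had 1.15 to 4.11 and 3.08 to 3.43, and CYP27A1 1.029 to 2.28 and 1.39 to 1.75. The first pair was thus separated between the ranges, and the second pair was not.

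The libraries of a range are not evenly spread: consecutive titles form 5 runs (S3-S5, S8-S9, S12-S14, S16-S19 and S21-S23), noted after the values had been seen. Over the 13 deep liver libraries, the SD of log2 values within runs had a median of 0.33 over the 28 members, against 0.50 within ranges and 0.80 within sorts, which span the ranges. It was smaller within runs than within sorts in 26 of the 28 members (92.9%), as it was in 78.5% of all genes. Libraries of 1 run may share an animal or a day, which the labels do not say. With 1 mean per run, 3 runs against 2, 7 members were still called (1.02% of all genes), all 8 but CYP4A24.

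Some members changed between runs inside a range. CYP2A19, the pig CYP2A enzyme that clears skatole, had 593, 482, 654 and 705 normalized counts in S16, S17, S18 and S19. It had 32.1, 0 (in the shallow S22) and 26.7 in S21, S22 and S23, and 20.6 or less in S3-S14. High values thus lay in 1 run, across all 4 of its sorts, and the range difference was not called at -4.43 (SE 1.82, adjusted p = 0.149). CYP2B6, a target of NR1I3, was highest in the same 4 libraries (46.04 to 60.4), against 30.4 and 14.9 in S21 and S23.

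CYP26B1 had 84.8 to 129 in S3-S5, 287 and 386 in S8 and S9, and 994 to 1359 in S12-S14, which overlapped its 897 to 1297 in S16-S23. CYP3A29 and CYP2E1 also split the second range, with 55154 to 68618 and 32800 to 42673 in S21-S23 against 22897 to 30088 and 12969 to 18037 in S16-S19. These runs were compared without a test.

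**Figure D5:**
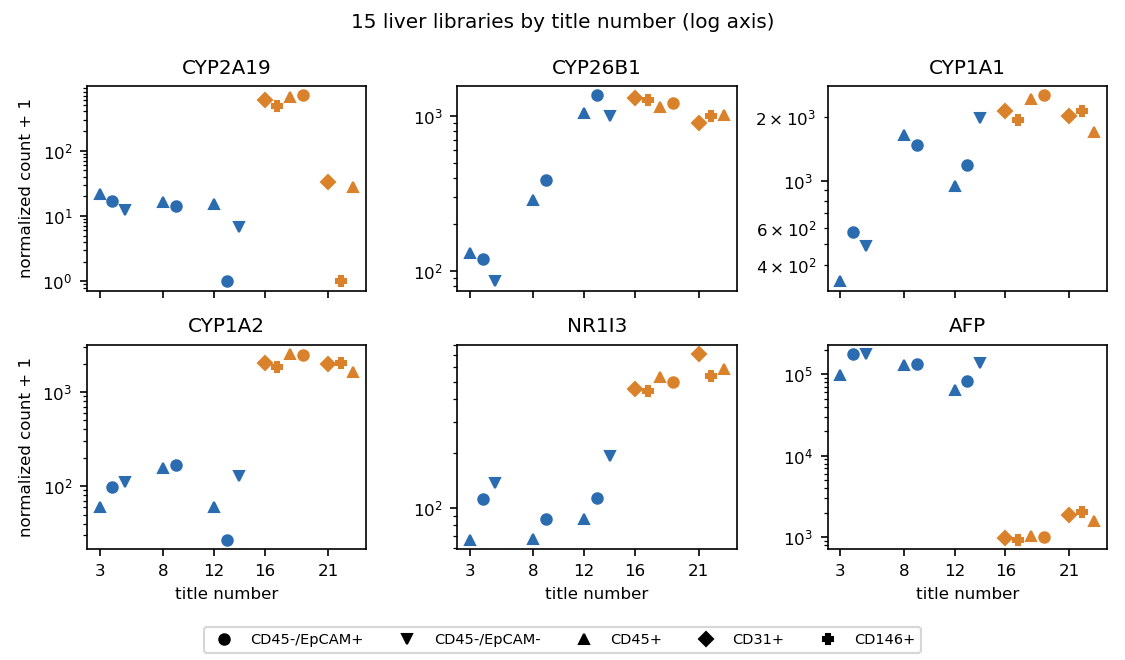
Normalized counts (log axis) of CYP2A19, CYP26B1, CYP1A1, CYP1A2, NR1I3 and AFP in the 15 liver libraries, against title number, with a marker for each sort. CYP2A19 is high in S16-S19, CYP26B1 in S12-S14 overlaps S16-S23, and CYP1A2 and NR1I3 step up, and AFP down, between S14 and S16.

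The third question was whether the liver sorts differ in P450 expression. With the range as a term, no member was called in the 3 comparisons of sorts made. Between CD45-/EpCAM- and CD45-/EpCAM+ cells 0 of 28 members were called with limma, against 0.617% of all genes. An unadjusted p under 0.05 was seen in limma for 1 member, CYP20A1 at -0.35, and for 2710 of 14910 genes. Between CD45+ and CD45-/EpCAM+ cells 0 members and 0% of all genes were called, and 0 members and 134 genes had an unadjusted p under 0.05. Between CD31+ and CD146+ cells on one side and CD45+ and CD45-/EpCAM+ cells on the other, again 0 members and 0% of genes were called, and 0 members and 9 genes had an unadjusted p under 0.05. The members' median log2 fold changes were 0.13, -0.07 and -0.04. With the run of titles as a term in place of the range, 0 members were again called in limma in each (3.92%, 0% and 0% of all genes). Those at an unadjusted p under 0.05 in limma were 6, 2 and 0 members, beside 4443, 717 and 6 of 14910 genes. With so few libraries per sort, differences of the size of the spread would not be seen, and these counts do not show that the sorts are alike.

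The range was also compared within each of the 2 sorts that span it. Within CD45+ cells alone 6 members were called (0.806% of all genes), and within CD45-/EpCAM+ cells, with only S19 in the second range, 1 was called (CYP26A1; 0.186% of all genes), with the spread of that lone library assumed to be like that of the other groups. The difference between these 2 effects was called for 0 of 29 members and 0% of genes in limma, with 0 members and 60 genes at an unadjusted p under 0.05. This test rests on the same lone library and could miss differences. CYP3A29 in CD45+ cells had 721, 1019 and 623 in S3, S8 and S12 against 30088 and 55154 in S18 and S23, and in CD45-/EpCAM+ cells 1135, 1241 and 676 in S4, S9 and S13 against 29878 in S19.

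P450 enzymes work with electron donors and need haem. Of 7 redox partners tested, 4 were lower in pBTSCs than in CD45-/EpCAM+ cells on the deposited scale (10.3% of all genes were): CYB5A (cytochrome b5) at -2.46, FDX1 (the ferredoxin of mitochondrial P450 enzymes) at -1.73, PGRMC1 (a haem-binding membrane protein) at -1.69 and POR (the main electron donor) at -1.50. Between the liver ranges none of the 7 was called, with POR at 2668 to 3280 normalized counts in S16-S23 and 3192 to 4871 in S3-S14. Of 12 genes of haem synthesis and breakdown, 5 were lower in pBTSCs on the same scale (10.3% of all genes) and none higher. Between the ranges 1 of the 12 was called (3.78% of all genes), BLVRB (biliverdin reductase B), higher in S3-S14 at 1.41.

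Among 17 regulators, 12 were lower and 3 higher in pBTSCs than in CD45-/EpCAM+ cells on the deposited scale, against 25.1% of all genes called. The bile acid receptor NR1H4 was lower by a log2 fold change of -4.73 (SE 0.29), its target repressor NR0B2 by -5.71 (SE 0.57), NR1I3 by -3.47 (SE 0.65) and the hepatocyte factor HNF4A by -2.09 (SE 0.33). The 3 higher ones were AHR at 1.07 (SE 0.25), the vitamin D receptor VDR at 3.18 (SE 0.87) and AHRR, the repressor of AHR, at 6.20 (SE 0.61). AHRR had 138 to 342 normalized counts in pBTSCs and at most 11.5 in liver.

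Between the ranges, 2 of the 17 regulators were called (3.78% of all genes), both lower in S3-S14 (2.27% of all genes). NR1I3, which induces CYP2B and CYP2C genes, had 64.9, 97.9 and 193 as lowest, median and highest value in S3-S14 and 445, 528 and 710 in S16-S23. It did not overlap, at -2.69 (SE 0.23, adjusted p = 7.42e-05). PPARA, the fatty acid receptor that induces CYP4A genes, was at -1.26 (SE 0.33, adjusted p = 0.0388) with overlapping values. AHR had 553 to 1184 against 1863 to 2051, under the fold threshold at -0.91 (SE 0.16, adjusted p = 0.00892), and NR1I2 was not called at -0.94 (SE 0.27, adjusted p = 0.0524).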

How the data were processed

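The values are normalized counts (unit: signal) that the authors deposited as a single table for 20 poly(A) libraries (RNeasy extraction, TruSeq Stranded mRNA). The submitters' processing notes name STAR, Salmon and DESeq2, while the genome build and annotation are not given in the sources used here. From each library's low values the worth of 1 read, and from it the depth, was estimated. Only 51.9% to 79.6% of low values lay within 0.05 of a whole read, so no count test was run. Floors cover counting error only, while each SE comes from limma's moderated spread between libraries.

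log2(normalized count + 1) was fitted in R 4.3.3 by limma 3.58.1 with a mean-variance trend, and p-values were adjusted by Benjamini-Hochberg over all genes tested, once over 20 libraries by 6 groups and once over 15 liver libraries by sort and title range. Genes had to reach 10 normalized counts in 2 or more libraries. The fits were tested on simulated data. Tables and plots were made with Python 3.11.15, numpy 2.4.6, pandas 2.3.3 and matplotlib 3.10.9. Members, gene lists and the cut between the liver title ranges were chosen with earlier results of these data known. Named were, in each comparison, called members without overlap (up to 8 in each direction), the 12 members with the highest mean, examples of each role and genes of the pathway lists; further genes were named after their values were seen. Of the 38 member names, 25 are in RefSeq Sscrofa11.1. The closest 2 libraries of a sort, S17 and the shallow S22, differed by 1.94 times counting noise, and none was treated as a repeat. Libraries of different sorts were not compared in this way, so repeats across sorts would not have been seen.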

Additional observations from a re-analysis of the deposited data

Results flagged for a closer look

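In groups of 4 or 5 libraries, 66 sets of values from 22 members were searched for a single library far from the rest, and 5 were found, where chance alone gives about 1 in 20. In CD45-/EpCAM+ cells, CYP3A29 had 29878 normalized counts in S19 against a next highest value of 1241, and CYP2C49 had 5909 in S19 against 275. S19 is the only CD45-/EpCAM+ library of S16-S23. In the same sort, CYP20A1 had 1139 in the shallow S13 against a next lowest value of 1268, and CYP4B1 was at 0 in S13, which is under that library's floor of 77.4, against 11.4. In CD45+ cells, CYP4B1 had 37.8 in S8 against 18.5.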

How the results depend on the processing

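No paired analysis was possible because the labels carry no replicate numbers or donors. Runs of consecutive titles, noted after the data had been seen, were tried as a term between liver sorts: 584 genes in place of 92 were called between CD45-/EpCAM- and CD45-/EpCAM+ cells, and 0 members. Scaling by hepatocyte markers moved the median of all genes to 8.12, 8.61, 7.87 and 7.80 in the comparisons of pBTSCs with CD45-/EpCAM+, CD45-/EpCAM-, CD45+ and CD31+ with CD146+ cells, and to -0.40 between the ranges. Members called then numbered 25, 26 and 25 in the first 3, all higher, and 24 in the fourth, 22 higher and 2 lower. Over all 15576 genes the calls numbered 15404, 15361, 15403 and 15360. Reversed log2 fold changes were, against CD45-/EpCAM+ cells, CYP2E1 0.45, CYP4A24 1.18, CYP2D25 1.28, CYP2C49 1.81, CYP27A1 5.15 and CYP7B1 6.94. Against CD45-/EpCAM- cells they were CYP2E1 1.16, CYP2D25 1.49, CYP4A24 1.78, CYP2C49 3.03, CYP1A2 4.10 and CYP27A1 5.13. Against CD45+ cells they were CYP4A24 0.90, CYP2D25 1.029, CYP1A2 2.0, CYP27A1 4.87 and CYP7B1 6.75. Against CD31+ and CD146+ cells they were CYP3A29 0.094, CYP2D25 0.25, CYP26A1 1.19 and CYP7A1 3.89. The scaling subtracts the mean log2 value of markers that are themselves lower in pBTSCs. With equal library totals the medians moved to 0.39, 0.51, 0.32 and 0.43, and members against CD45-/EpCAM- cells were called 8 higher and 5 lower, instead of 5 and 6.

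Between the ranges, 13 members were called without the 3 shallow libraries, 14 with array weights, 14 with no sort label and 1 in CD45-/EpCAM+ cells alone, which leaves few libraries, all lower. Leaving out 1 library at a time gave 7 to 10 members there, 14 to 20 across the 6 groups, and 12 to 16, 8 to 12, 11 to 16 and 18 to 20 for pBTSCs against CD45-/EpCAM+, CD45-/EpCAM-, CD45+ and CD31+ with CD146+ cells. Over all genes the 564 calls between the ranges became 88 without S19, 136 without S18, 288 without S23, 322 without S8, 165 under the hepatocyte scaling, 152 with 1 mean per run, 116 in CD45+ and 29 in CD45-/EpCAM+ cells alone, 1101 without the shallow libraries, 1168 with no fold threshold, 1851 with no sort label and 1927 with array weights. In the pBTSC comparisons the hepatocyte scaling gave 15360 to 15404 calls, no fold threshold 6029 against CD45-/EpCAM+ and 5261 against CD45+ cells, S16-S23 alone 1376 (with members 2 higher and 12 lower), and leaving out S5 3390 against CD45-/EpCAM- cells. Between CD45-/EpCAM- and CD45-/EpCAM+ cells the 92 calls ranged from 0 to 1204. Calls lost without 1 library, beside those given above, were CYP7B1 against CD45+ cells (S7, S18 or S23) and, against CD45-/EpCAM- cells, CYP1A2 (S2, S7, S11, S5 or S14), CYP2C49 (S5 or S14), CYP2U1 (S5) and CYP21A2 (S14). Of 1084 other values of named genes, 1046 kept call and direction, 38 lost the call and 0 reversed. The cause of these moves was not tested. The 3 shallow libraries limit what can be said of low members.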

Other observations

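CYP1A1 in pBTSCs had 1521 normalized counts in S2 against 90.03 to 394 in the other 4 libraries, while CYP1A2 was at 0.680 in S2, under that library's floor of 0.683. DLK1, a fetal liver gene, was lower in every S3-S14 library than in any S16-S23 library at a log2 fold change of -3.70, with an adjusted p of 0.0647 in limma, opposite in sign to AFP.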
